A study of Arabidopsis thaliana with 16 samples.

Results

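The sites described here are those at which H2A.Z was called as lower in *arp6-1 mbd9-3* double mutant shoots than in *arp6-1* single mutant shoots of *Arabidopsis thaliana*. They are called lost sites here. The lists of positions at which *arp6-1* exceeded *arp6-1 mbd9-3* held 1137 summits in replicate 1 and 2034 in replicate 2, out of 216620 summits in the 16 lists of the series. Where summits of both replicates lay within 200 bp of each other they were taken as 1 common lost site, which gave 839 sites over 784 of 27444 protein-coding genes, or 2.86% of them. The summits of replicate 1 alone touched 3.79% and those of replicate 2 alone 6.65% of these genes. Shoots of 4 genotypes in the Col-0 background were compared, namely the double mutant, plants with *arp6-1* alone, plants with *mbd9-3* alone and wild type. All were 13 days old, with 2 replicates a genotype raised on separate plates, and each chromatin sample was precipitated with antibodies to H2A.Z and to H3. Both mutant alleles are T-DNA insertions (SALK_039302 for *mbd9-3* and Sail_599_G03 for *arp6-1*) present in every cell. Whole shoots mix many cell types, so that fewer cells carrying H2A.Z at a site and less H2A.Z in each cell cannot be told apart. The polyclonal H2A.Z antibody was raised against HTA11 and HTA9. The summit lists carry no expression values, so neither the tissue nor the genotypes could be checked against marker genes.

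H2A.Z is a variant of histone H2A that is placed in nucleosomes by the SWR1 remodelling complex. In plants as in other eukaryotes it is found most often near the start of genes. In *Arabidopsis* it also covers the bodies of weakly expressed genes that respond to the environment. ARP6, an actin-related protein, is a subunit of this complex, and plants without it keep only part of their H2A.Z. MBD9 carries a methyl-CpG-binding domain, a bromodomain and PHD fingers, and it associates with SWR1 and with remodellers of the ISWI family. The comparison of the double mutant with *arp6-1* asks where the H2A.Z that remains without ARP6 depends on MBD9.

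The value attached to each summit is the −log10 of the q value that the peak caller MACS2 gave it, called the score here. It measures how sure the enrichment is and grows with sequencing depth as well as with the amount of H2A.Z, so scores are compared within a list and not read as amounts. With 2 replicates a genotype an exact two-sided permutation test could not go below p = 0.33, so no test between genotypes was made. Numbers in brackets after a share are its 95% limits by the exact Clopper-Pearson method, which cover counting error only and take sites or genes as independent.

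To show what the strongest losses look like on the DNA, 100 bp to each side of the summits of 6 of the 15 genes with the highest scores are printed 5′ to 3′ on the strand of the gene (TAIR10.1, all on the plus strand). The capitals mark the bases from the summit of one replicate to the summit of the other. The windows lie at chr1:3558490-3558690 (*PHS1*), chr3:17849426-17849626 (AT3G48210), chr3:20330782-20330982 (*MRH2*), chr1:4773628-4773828 (*ELF5A-1*), chr2:14756796-14756996 (*GlcNAc1pUT2*) and chr4:5792314-5792514 (*AGP10*), and the centre of each lost site fell in a coding exon.
PHS1: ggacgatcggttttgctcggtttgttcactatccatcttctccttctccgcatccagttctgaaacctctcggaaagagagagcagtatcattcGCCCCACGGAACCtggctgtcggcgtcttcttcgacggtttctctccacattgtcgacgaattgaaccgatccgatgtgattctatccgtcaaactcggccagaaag
AT3G48210: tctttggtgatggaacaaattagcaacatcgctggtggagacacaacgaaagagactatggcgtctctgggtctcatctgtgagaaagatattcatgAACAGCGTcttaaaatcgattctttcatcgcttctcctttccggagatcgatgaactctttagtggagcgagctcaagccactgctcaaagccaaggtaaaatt
MRH2: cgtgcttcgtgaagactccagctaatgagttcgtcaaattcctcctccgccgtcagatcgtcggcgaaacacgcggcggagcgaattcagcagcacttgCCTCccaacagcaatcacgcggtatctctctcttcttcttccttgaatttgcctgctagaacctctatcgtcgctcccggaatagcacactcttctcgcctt
ELF5A-1: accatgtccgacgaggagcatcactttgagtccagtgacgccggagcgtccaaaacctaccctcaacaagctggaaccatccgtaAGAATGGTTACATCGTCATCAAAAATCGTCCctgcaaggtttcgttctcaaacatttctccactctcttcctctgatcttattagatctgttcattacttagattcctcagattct
GlcNAc1pUT2: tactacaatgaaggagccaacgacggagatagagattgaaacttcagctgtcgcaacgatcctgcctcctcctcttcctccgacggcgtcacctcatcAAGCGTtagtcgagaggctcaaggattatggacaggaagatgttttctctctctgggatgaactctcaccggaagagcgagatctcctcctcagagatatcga
AGP10: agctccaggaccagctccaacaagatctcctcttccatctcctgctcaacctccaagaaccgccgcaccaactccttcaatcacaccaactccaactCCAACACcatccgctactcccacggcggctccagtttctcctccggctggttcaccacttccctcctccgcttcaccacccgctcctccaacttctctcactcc

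In these 6 windows the stretch from one summit to the other spanned 4 to 31 bases. Over all 839 sites the median gap between the best summits of both replicates was 27 bp, and 648 sites (77.2%) had a gap of 50 bp or less. The joining distance therefore decided few sites, with 13 sites at a gap over 150 bp just inside it and 9 summits of replicate 1 whose nearest partner lay over 200 and up to 250 bp away just outside it. Of the summits of replicate 1, 846 of 1137 (74.4%, 71.8 to 76.9) had a partner in replicate 2, and of those of replicate 2, 842 of 2034 (41.4%, 39.2 to 43.6) had one in replicate 1. Replicate 2 also held more *arp6-1* summits over H3 (7506, against 3827 in replicate 1), whereas the *arp6-1 mbd9-3* lists were alike in size (1265 and 1243). The lists give no read depth, and its part in this difference was not tested.

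Scores at the common lost sites reached 27.2 in replicate 1 and 33.8 in replicate 2, with medians of 6.61 and 8.64. Replicate 2 had the higher score at 579 of the 839 sites. Both replicates ranked the sites alike only loosely, with a Spearman correlation of 0.43 over the 839 sites, which share their libraries and are no independent replicates.

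**Figure D1:**
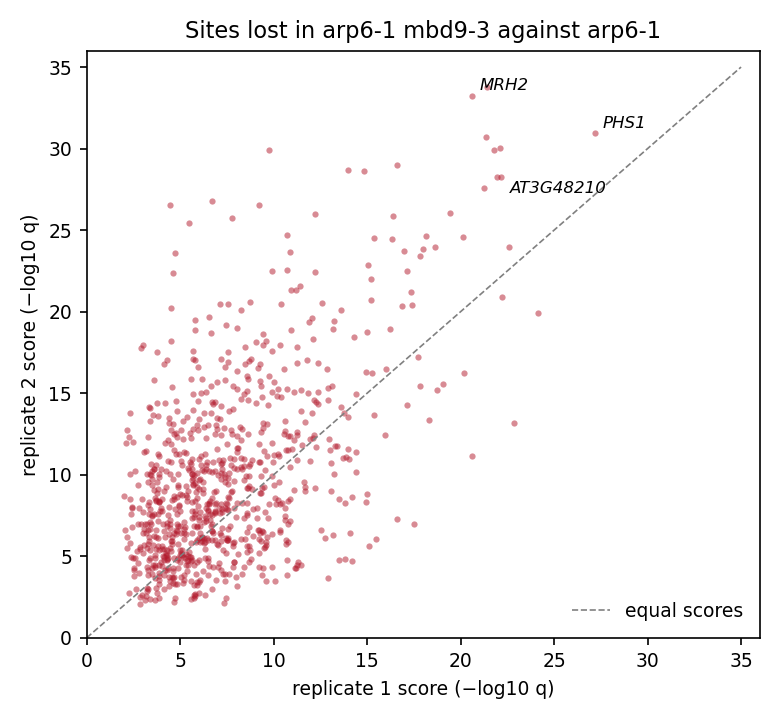
Score (−log10 q) of each of the 839 common lost sites in replicate 1 (x axis) and replicate 2 (y axis), each point being a site and the dashed line equal scores. Most points lie above the line, 579 of 839, and *PHS1*, AT3G48210 and *MRH2* stand among the sites that were high in both replicates.

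The site with the highest score lay in *PHS1* (AT1G10710), which is required for the pairing of homologous chromosomes in meiosis. Its lost site, at chr1:3558496-3558684 and 232 bp after the gene start, had loss scores of 27.2 and 31.0 in the 2 replicates. At this site the score over H3 was 6.34 in replicate 1 of *arp6-1 mbd9-3*, with no summit in its replicate 2, 44.2 and 61.0 in *arp6-1*, 38.6 and 40.4 in *mbd9-3*, and 17.6 and 14.7 in wild type. Summits of both single mutants thus stood at this position in each replicate, and neither single mutant was called as lower than wild type there.

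Next in the order stood AT5G63990, annotated as an inositol monophosphatase family protein, with loss scores of 22.6 and 24.0, and AT3G48210, annotated as a kinetochore protein, with 22.1 and 28.2. At AT5G63990 no *arp6-1 mbd9-3* summit was called, while *arp6-1* scored 15.4 and 11.5. At AT3G48210 *arp6-1 mbd9-3* had a score of 2.40 in replicate 2 alone, and *arp6-1* scored 32.3 and 43.4. The site of *AGP10*, which encodes an arabinogalactan protein of the cell surface, also covered the overlapping antisense gene AT4G09035, and the lists cannot assign it to one of them. It scored 22.1 and 30.1 as lost, but a summit of *arp6-1 mbd9-3* with a score of 11.5 remained in replicate 2.

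*ELF5A-1* encodes the translation factor eIF5A and scored 21.9 and 28.3 as lost. *GlcNAc1pUT2*, an enzyme that makes UDP-N-acetylglucosamine, scored 21.8 and 29.9. *MRH2*, a kinesin with armadillo repeats that is required for normal root hairs, scored 20.6 and 33.2. None of these had a summit over H3 in *arp6-1 mbd9-3*, whereas *arp6-1* scored 19.0 and 24.4 at *ELF5A-1*, 23.1 and 14.6 at *GlcNAc1pUT2*, and 32.9 and 29.6 at *MRH2*.

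The rest of the first 15 were AT3G53370 (S1FA-like DNA-binding protein), AT5G39240 (UPBEAT-like transcription factor), AT1G51380 (DEAD/H-box RNA helicase family), AT1G15320 (annotated as a seed dormancy control protein), AT5G05130 (DNA/RNA helicase protein), and AT4G03620 and AT4G03625, which share a site with AT4G03630. Over the 15 genes, the loss scores ran from 20.1 to 27.2 in replicate 1 and from 19.9 to 33.8 in replicate 2, and all 15 had an *arp6-1* summit in both replicates. A summit over H3 in *arp6-1 mbd9-3* was called at 4 of the 15 genes in at least 1 replicate, and of these *AGP10* and AT4G09035 share 1 site. AT3G53370 had no wild-type summit within 200 bp of its site in either replicate, although *arp6-1* scored 14.0 and 26.3 there.

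The lists against wild type give the other comparisons at these genes. The counts are of genes, so the site of *AGP10* and AT4G09035 and that of AT4G03620 and AT4G03625 each count for both genes. A loss in *arp6-1* against wild type was called at the site of 1 of the 15 genes, AT5G05130, with scores of 4.99 and 6.07. A loss in *mbd9-3* against wild type was also called at this gene alone, with a score of 2.64 in replicate 1. A loss in the double mutant against wild type was called at 13 of 15 in replicate 1 and at 14 of 15 in replicate 2. The H2A.Z libraries of the double mutant and of *arp6-1* in these lists are the same as those that defined the lost sites, so these values are side by side and are not independent of the choice of sites.

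The lost sites sat close to gene starts. The median distance from the nearest protein-coding gene start to the lost sites was 241 bp downstream along transcription (quartiles 178 and 326 bp). For comparison, kept sites were defined as the 1520 common *arp6-1* summits over H3 that lay more than 500 bp from every lost summit of either replicate, and their median distance was 412 bp (quartiles 259 and 658 bp). Within 500 bp after a start lay 672 of the 839 lost sites (80.1%, 77.2 to 82.7) and 749 of the 1520 kept sites (49.3%, 46.7 to 51.8). More than 500 bp after the start lay 86 lost sites (10.3%) and 599 kept sites (39.4%), whereas the shares before a start were 9.65% of lost sites and 11.3% of kept sites. Common wild-type summits lay at a median of 378 bp, and 48.4% of the 21919 were within 500 bp after a start. In single replicates the median distance of the lost summits was 245 and 263 bp, that of *arp6-1 mbd9-3* summits over H3 520 and 517 bp, and that of *arp6-1* summits over H3 354 and 367 bp.

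**Figure D2:**
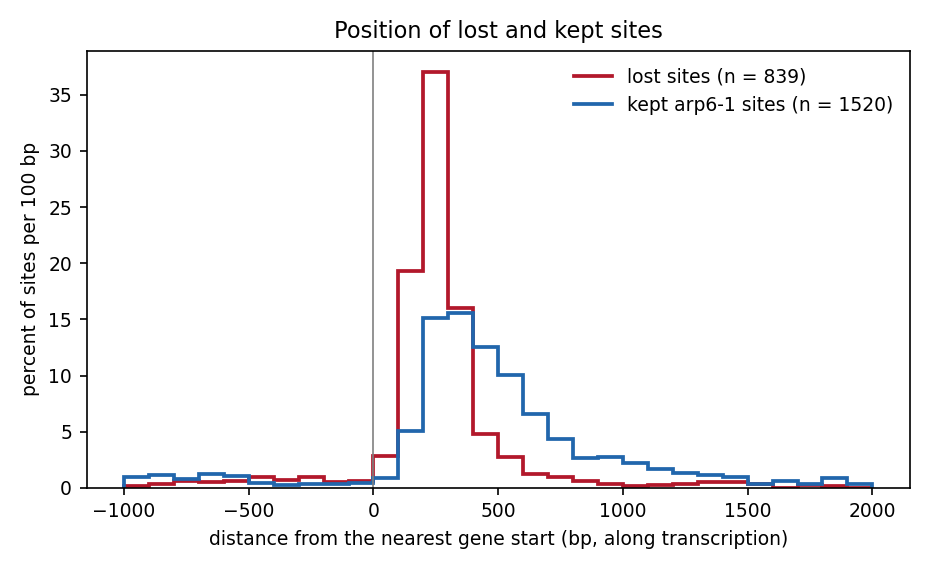
Percent of sites in steps of 100 bp (y axis) by signed distance from the nearest protein-coding gene start (x axis, bp), for 839 lost sites and 1520 kept *arp6-1* sites. The lost sites form a narrow peak with a median of 241 bp, and the kept sites a broader one with a median of 412 bp.

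Read the other way, 679 of the 2909 common *arp6-1* summits were lost, or 23.3% (21.8 to 24.9). Over 100 and up to 200 bp after a start 125 of 285 summits (43.9%, 38.0 to 49.8) were lost, over 200 and up to 300 bp 236 of 615 (38.4%, 34.5 to 42.3), over 400 and up to 500 bp 39 of 299 (13.0%, 9.44 to 17.4), and over 500 and up to 1000 bp 40 of 565 (7.08%, 5.11 to 9.52). The share thus declined with distance into the gene up to 1000 bp, and was 11.5% (8.02 to 15.7) beyond that and 22.5% (18.04 to 27.6) before the start.

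The loss also moved with the *arp6-1* score, and the rule used those libraries, so this is a description. With the *arp6-1* summits ranked by score and divided into quintiles, in the lowest quintile 36 of 590 (6.10%, 4.31 to 8.35) were lost, and in the highest quintile 350 of 582 (60.1%, 56.0 to 64.1). Lost summits lay closer to the start in each of the 5 quintiles. In the highest quintile the median distance was 234.5 bp for the 350 lost summits and 352 bp for the 232 others, and in the lowest quintile 291 bp for the 36 lost and 426.5 bp for the 554 others.

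**Figure D3:**
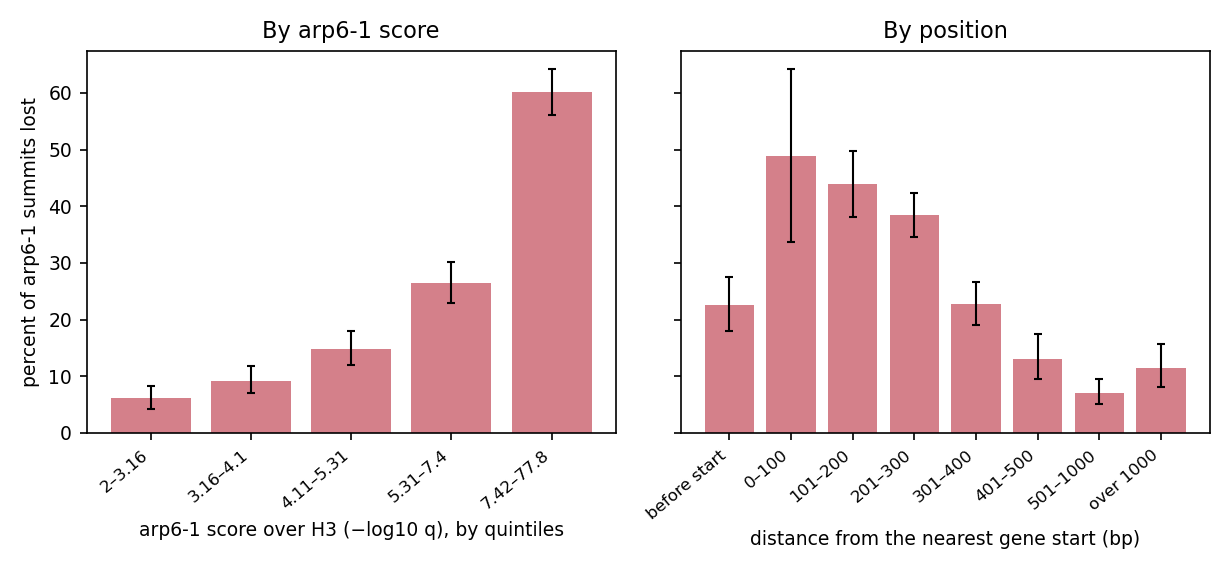
Percent of the 2909 common *arp6-1* summits that were lost in *arp6-1 mbd9-3* (y axis), by quintiles of the *arp6-1* score over H3 (left) and by distance from the nearest gene start (right), with exact 95% intervals as error bars. The share is 6.10% in the lowest and 60.1% in the highest quintile, 43.9% over 100 and up to 200 bp, and 7.08% over 500 and up to 1000 bp.

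The parts of genes differed accordingly. Of the lost sites 560 (66.7%, 63.4 to 69.9) were centred on coding exons, against 85.3% (83.4 to 87.0) of kept sites. 5′ UTR exons held 112 lost sites (13.3%, 11.1 to 15.8) and 2.30% (1.61 to 3.19) of kept sites, and introns held 92 lost sites (11.0%, 8.93 to 13.3) and 5.26% (4.20 to 6.51) of kept sites. Of the 92 lost sites in introns, 86 (93.5%) lay in the first intron, and of the 80 kept sites in introns 60 did.

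Most lost sites belonged to 1 gene each. They overlapped 1 protein-coding gene at 762 sites, 2 or more at 18 sites and none at 59 sites, and 14 genes held 2 or more. Among other annotated genes, lost sites overlapped 28 lncRNA genes, 10 pseudogenes and 9 transcribed pseudogenes. Genes with a lost site were longer (median 2399.5 bp) than genes with an *arp6-1* summit and no lost site (median 1891 bp) and than all protein-coding genes (2078 bp). The nearest gene had a divergent neighbour whose start lay no more than 500 bp before its own at 127 of 839 lost sites (15.1%, 12.8 to 17.7) and at 108 of 1520 kept sites (7.11%, 5.86 to 8.51), against 11.4% of all protein-coding genes. The 5 chromosomes were alike, with lost sites in 2.66 to 3.06% of their protein-coding genes.

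The base composition within 100 bp of the sites was lower in G and C at lost sites (median 44.8%, quartiles 40.8 and 48.8) than at kept sites (median 47.8%, quartiles 43.8 and 51.7). At the same median distance of 241 bp after the start, all protein-coding genes had a median of 40.3% (quartiles 36.3 and 45.3).

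The summits over H3 of each genotype are given next. The H2A.Z libraries of the double mutant and of *arp6-1* are those from which lost and kept sites were chosen, so their shares describe the choice and are no independent finding. At the 839 lost sites a summit within 200 bp was called in *arp6-1 mbd9-3* at 5.60% in replicate 1 and 7.63% in replicate 2, in *arp6-1* at 83.2% and 89.3%, in *mbd9-3* at 85.3% and 88.3%, and in wild type at 94.6% and 93.2%. At the 1520 kept sites *arp6-1 mbd9-3* had a summit at 26.2% and 25.7%, *mbd9-3* at 87.8% and 89.1%, and wild type at 94.1% and 92.8%, while the *arp6-1* share is 100% by definition. No *arp6-1* summit was called in either replicate at 66 lost sites (7.87%, 6.14 to 9.90), which therefore rest on the differential lists alone. In neither replicate of *arp6-1 mbd9-3* was a summit called at 747 lost sites (89.0%) and at 928 kept sites (61.1%). Kept sites are thus sites at which no difference from *arp6-1* was called, many of them without a summit in the double mutant.

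**Figure D4:**
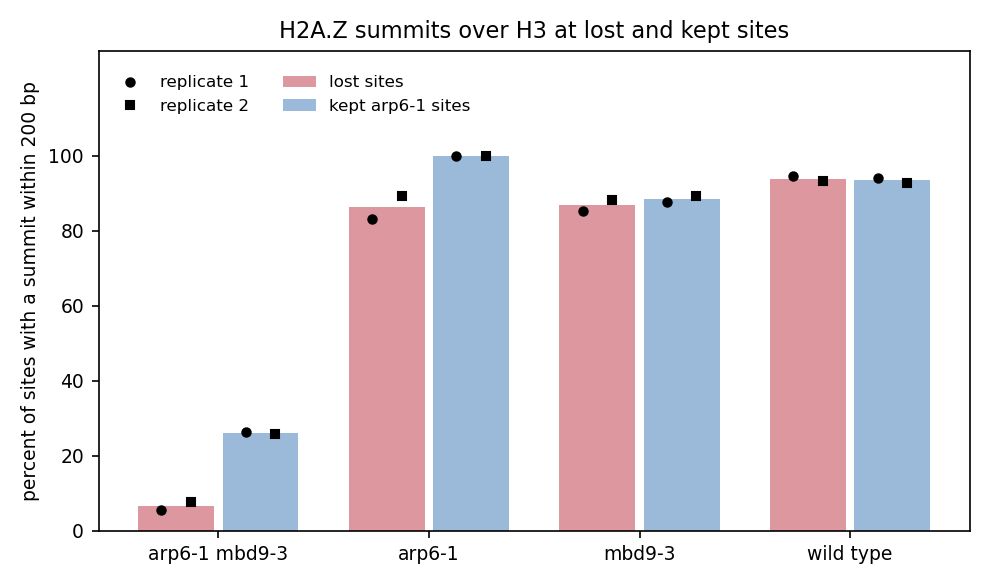
Percent of sites with an H2A.Z summit over H3 within 200 bp (y axis) in the double mutant, both single mutants and wild type, for 839 lost and 1520 kept sites. Bars are means of 2 replicates and symbols the replicates. In *arp6-1 mbd9-3* lost sites stand at 5.60% and 7.63% and kept sites at 26.2% and 25.7%, and in wild type both stand above 90%. The sites were chosen with the double mutant and *arp6-1* libraries.

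The *mbd9-3* and wild-type libraries were not used to choose the sites. A loss in *mbd9-3* against wild type was called at 116 of the 839 lost sites (13.8%, 11.6 to 16.3) in replicate 1, at 49 (5.84%, 4.35 to 7.65) in replicate 2 and at 36 (4.29%, 3.02 to 5.89) in both. Over all 21919 common wild-type summits the called shares were 22.0% in replicate 1, 17.1% in replicate 2 and 10.6% in both, and at kept sites 7.70%, 5.197% and 2.83%. Among the quintile of wild-type summits with the highest scores, *mbd9-3* loss was called at 12.5% and 5.56% of the 522 summits at lost sites, at 7.76% and 5.71% of the 735 at kept sites and at 18.4% and 14.1% of all 4382. The share called as lower in *mbd9-3* was thus smaller at lost sites than at wild-type summits at large and, in replicate 1, larger than at kept sites. A total of 710 of the 839 lost sites (84.6%) were in neither *mbd9-3* list.

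The values against wild type for *arp6-1* and the double mutant share libraries with the rule and stand here side by side only. A loss in *arp6-1* was called at 53.3% and 32.9% of lost sites and at 67.4% and 50.1% of kept sites, against 75.7% and 63.5% of all common wild-type summits, and in both replicates at 27.5% of lost sites, against 56.2% of all. A loss in *arp6-1 mbd9-3* was called at 94.9% and 94.0% of lost sites and at 82.6% and 78.2% of kept sites, against 81.9% and 78.9% of all, and in both replicates at 91.1% of lost sites, against 71.8% of all. No loss in either single mutant was called, in either replicate, at 326 of the 839 lost sites (38.9%, 35.5 to 42.2).

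In wild type the lost sites were among the stronger ones. Where a wild-type summit was present, its score was at a median percentile of 92.1 of the list in replicate 1 and 89.5 in replicate 2 at lost sites, and at 86.5 and 85.0 at kept sites. Median wild-type scores were 14.4 and 11.0 at lost sites and 12.2 and 9.84 at kept sites, against 6.11 and 5.40 over the whole lists.

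The functions of the genes were then counted in 19 lists defined by gene symbols and product names, and 123 of the 784 genes with a lost site belonged to at least 1 list. The share of members with a lost site exceeded the 2.86% of all protein-coding genes in 11 of the 19 lists. Few members in most lists and the wide intervals limit what these shares can separate. No test of the lists was made.

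**Figure D5:**
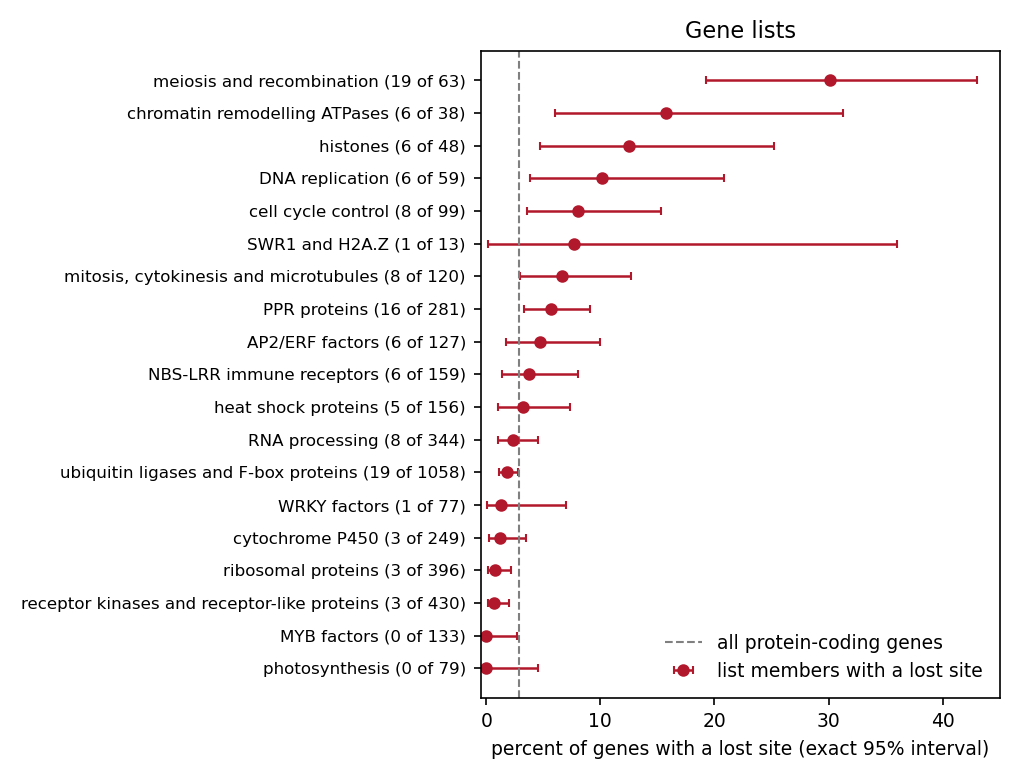
Percent of members with a common lost site (x axis) for 19 gene lists (y axis, with the number lost of the number of members), points with exact 95% intervals, and the 2.86% of all protein-coding genes as a dashed line. Meiosis and recombination stands highest at 30.2%, and MYB factors and photosynthesis genes stand at 0.

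Genes of meiosis and recombination had the highest share, 19 of 63 members (30.2%, 19.2 to 43.0). They also more often held an *arp6-1* summit that could be lost, 28 of 63 members (44.4%) against 8.66% of all protein-coding genes. Of these 28 genes 19 (67.9%) were lost, against 625 of 2376 (26.3%) among all genes with a common *arp6-1* summit. In the quintile of genes with the highest *arp6-1* scores, 13 of 14 members (92.9%, 66.1 to 99.8) were lost, against 303 of 476 genes (63.7%, 59.2 to 68.0). Of the 44 members with no common lost site, 9 had a lost summit in replicate 2 alone and 1 in replicate 1 alone.

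The members span the steps of meiotic recombination. Of the genes that make the double-strand breaks, *SPO11-1*, the catalytic topoisomerase-like protein (listed as *ATSPO11-1*), had loss scores of 17.3 and 21.2 and *SPO11-2*, its partner, 3.61 and 15.8, and *PRD1* and *PRD3*, which are needed for break formation, had 7.31 and 5.42, and 15.5 and 6.08. At *SPO11-1* no *arp6-1 mbd9-3* summit was called, while *arp6-1* scored 13.5 and 21.1, *mbd9-3* 16.5 and 19.4, and wild type 12.98 and 11.96. *DMC1*, the meiotic recombinase that pairs a broken end with the homologous chromosome, scored 13.8 and 13.8 as lost. It kept a summit with a score of 3.88 in replicate 1 of *arp6-1 mbd9-3*, against 19.8 and 24.4 in *arp6-1*.

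*MSH4* and *MSH5* form the pair of MutS-like proteins that stabilises crossover intermediates, and *RCK*, a helicase, acts in the same crossover pathway. Their loss scores were 14.8 and 28.6 for *MSH4*, 10.7 and 22.6 for *MSH5*, and 8.39 and 7.33 for *RCK*, and none of the 3 had a summit in *arp6-1 mbd9-3*. *ASY1* and *ASY3*, proteins of the chromosome axis, scored 8.05 and 10.3, and 7.50 and 5.99, and *ZYP1a*, of the synaptonemal complex, scored 5.92 and 8.58. *ASY1* differed from these in that *arp6-1 mbd9-3* kept a summit in both replicates, with scores of 5.62 and 4.53 against 13.1 and 15.99 in *arp6-1*. *SYN1*, the meiotic cohesin, scored 4.02 and 5.64, and *SWI1*, which acts in cohesion, 3.64 and 4.49.

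All 19 sites of this list had an *arp6-1* summit in both replicates, and 18 and 19 had an *mbd9-3* summit. A summit in *arp6-1 mbd9-3* was called at 3 and 1 of them. At none of the 19 sites was *mbd9-3* called as lower than wild type in either replicate, against the sites of 114 and 50 of the 784 genes. Anywhere over these genes the count was 0 and 1 of 19, against 150 and 84 of 784. A total of 9 of the 19 sites (47.4%) were centred in introns, against 92 of 784 genes (11.7%). Within 500 bp after the start lay 18 of the 19, near the 683 of 784 among all genes with a lost site.

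Genes of the mitotic cycle also had lost sites, in shares above the 2.86% of all protein-coding genes. The list of cell cycle control held 8 of 99 (8.08%, 3.55 to 15.3), DNA replication 6 of 59 (10.2%, 3.82 to 20.8) and mitosis, cytokinesis and microtubules 8 of 120 (6.67%, 2.92 to 12.7). They more often held a common *arp6-1* summit as well, 16.2%, 22.0% and 23.3% of members in the same order, against 8.66% of all genes. Of the members with such a summit 7 of 16 (43.8%) in cell cycle control, 6 of 13 (46.2%) in DNA replication and 8 of 28 (28.6%) in the mitosis list were lost, against 26.3% of all such genes, so the mitosis list stood near the background. The shares depended on the replicate, and in replicate 2 alone they were 16.2%, 30.5% and 17.5%, against 6.65% of all genes, and in replicate 1 alone 12.1%, 10.2% and 10.8%, against 3.79%. *CYC3B*, a mitotic cyclin, scored 18.0 and 23.9 as lost, *WEE1*, annotated as a WEE1-like kinase, 11.2 and 12.7, and *DEL2*, an E2F-like repressor, 8.72 and 10.7. None of them had an *arp6-1 mbd9-3* summit, and *arp6-1* scored 19.5 and 33.6 at *CYC3B*, 8.75 and 18.7 at *WEE1*, and 9.78 and 15.1 at *DEL2*. Other members were *CDC27a* and *APC7* of the anaphase-promoting complex, the inhibitor *KRP2*, *FZR3* and *ATE2F2*.

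Of the replication genes, *MCM10*, which helps to start replication forks, scored 9.77 and 29.9 as lost, *RPA70D*, a single-strand DNA binding protein, 8.67 and 9.90, and *MCM9*, an MCM-family helicase, 7.38 and 9.54. *CDC45* scored 16.6 and 7.26 and *PCNA1*, the sliding clamp, 6.51 and 4.88. In the mitosis list the highest after AT3G48210 and *MRH2* was *AUR3*, an Aurora kinase, with 19.1 and 15.6. It had no summit in *arp6-1 mbd9-3*, 24.1 and 23.1 in *arp6-1*, 35.6 and 33.7 in *mbd9-3*, and 10.7 and 17.1 in wild type. *BUBR1*, of the spindle checkpoint, scored 9.34 and 12.6, and kept an *arp6-1 mbd9-3* score of 6.32 in replicate 1.

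Chromatin genes were a further group. Of their members with a common *arp6-1* summit 4 of 10 remodelling ATPases and 5 of 14 histone genes were lost, against 26.3% of all such genes. Among genes in the quintile with the highest *arp6-1* scores they were 3 of 5 (60.0%) and 4 of 7 (57.1%), against 63.7% of all. Neither list stood above the background there. Among 38 chromatin remodelling ATPases 6 had a lost site (15.8%, 6.02 to 31.3), namely AT5G07810 with 14.98 and 18.8, *CHR34* with 14.0 and 11.6, *CHR40* with 8.24 and 12.1, *CHR17*, an ISWI ATPase, with 6.37 and 15.1, *CHR23*, a SWI/SNF-type ATPase, with 5.71 and 9.44, and *SWI2* with 5.44 and 9.01. The site of *CHR34* lay 3166 bp after its start, and the others 164 to 261 bp. At *CHR17* no *arp6-1* summit over H3 was called within 200 bp in either replicate, so the site rests on the differential lists alone.

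Histone genes held 6 of 48 (12.5%, 4.73 to 25.2). Among these were AT3G27360 with 8.08 and 11.7, at a site shared with AT3G27380, and *HIS1-3*, a stress-inducible linker histone, with 7.37 and 10.03. Lost summits of replicate 1 touched 12.5% of histone genes, against 3.79% of all genes. Those of replicate 2 touched 20.8%, against 6.65% of all genes. Histone genes come in near-identical copies, and the reads were restricted to unique positions, so their values are less certain. Of the 13 genes of SWR1 and H2A.Z, *HTA8*, an H2A.Z gene, was the one with a lost site (9.96 and 10.8), and *ARP4*, *ARP6*, *SWC2*, AT2G47210 (SWC4), *PIE1*, *SEF*, *GAS41* (YAF9A), *RIN1*, AT5G67630 (RIN2), *MBD9*, *HTA9* and *HTA11* had no lost summit in either replicate. *HTA11* had *arp6-1* summits with scores of 5.18 and 7.57 and none in *arp6-1 mbd9-3*.

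Pentatricopeptide repeat (PPR) genes, whose products bind and edit organelle RNA, held 16 of 281 (5.69%, 3.29 to 9.08). Lost summits of replicate 1 touched 7.47% of PPR genes, against 3.79% of all genes. Those of replicate 2 touched 10.3%, against 6.65% of all genes. Of the 14 PPR genes with a common *arp6-1* summit 7 were lost. AT2G32630 scored 12.6 and 20.5 as lost, AT5G08510 11.2 and 12.4, and AT4G11690 10.2 and 14.8. An *arp6-1* summit stood at 7 and 12 of these 16 sites, against 19 and 19 of 19 in the meiosis list, and a loss in *mbd9-3* was called at 8 and 3 of 16. All 16 lay within 500 bp after the start, as did 683 of the 784 genes with a lost site.

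Apart from AP2/ERF factors, the remaining lists stood near or below the background of 2.86%. In replicate 2 alone, where the background was 6.65%, their shares were also higher. They ran from 1.26% for ribosomal proteins to 15.7% for AP2/ERF factors among those of these lists with a common lost site. AP2/ERF factors held 6 of 127 (4.72%, 1.75 to 9.999), although 102 of the 127 had a common wild-type summit and 32 an *arp6-1* summit, and 5 of those 32 (15.6%) were lost. AT1G19210 scored 4.89 and 10.04, AT5G52020 4.82 and 7.60, and *ORA47* 3.64 and 5.07. NBS-LRR immune receptors held 6 of 159 (3.77%, 1.40 to 8.03), with AT1G27180 at 7.52 and 6.01, *ADR1* at 10.6 and 5.98 and AT5G45000 at 5.56 and 12.3. Heat shock proteins and factors held 5 of 156 (3.21%, 1.05 to 7.32), with *HSFA3* at 6.92 and 8.29, at a site shared with AT5G03710, AT5G06410 at 14.1 and 6.45, shared with AT5G06420, and *HSFA6A* at 6.002 and 13.4. The site of *HSFA3* lay at its 3′ end, 3186 bp from its start, and 217 bp after the start of AT5G03710. RNA processing held 8 of 344 (2.33%, 1.01 to 4.53), AT1G51380, AT5G05130 and AT4G24420 (8.29 and 8.29) being the highest. Shares among members with a common *arp6-1* summit differed from this order. There 7 of 15 RNA processing genes (46.7%), 5 of 13 NBS-LRR genes (38.5%) and 2 of 22 heat shock genes (9.09%) were lost, against 26.3% of all.

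Receptor kinases and receptor-like proteins held 3 of 430 (0.698%, 0.144 to 2.03), which were AT5G43020 with 6.87 and 7.75, *EMS1*, a receptor of anther development, with 8.72 and 5.40, and *RLP33* with 3.36 and 7.62. Of the 36 members with a common *arp6-1* summit these were 8.33%, against 26.3% of all such genes. Cytochrome P450 genes held 3 of 249 (1.205%, 0.249 to 3.48), *CYP706A5*, *CYP81G1* and *CYP89A6*, with scores from 4.28 to 7.88. Ubiquitin ligases and F-box proteins held 19 of 1058 (1.796%, 1.08 to 2.79), led by AT4G03625, AT2G43270 (14.4 and 14.9) and AT1G08710 (14.0 and 13.5). Of the 78 members of this list with a common *arp6-1* summit 17 (21.8%) were lost, nearer to the 26.3% of all such genes. AT1G08710 was called as lower in *mbd9-3* than in wild type in both replicates, with scores of 8.13 and 2.84.

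The list of ribosomal proteins held 3 of 396 (0.758%, 0.157 to 2.20), AT5G63300, AT5G53920 and AT4G26060, and of these 396 genes 5 had a common *arp6-1* summit. AT5G53920 is annotated as a ribosomal protein L11 methyltransferase-like protein and is in the list by its name. WRKY factors held 1 of 77, *WRKY22* with 4.46 and 5.50. None of 133 MYB factors and none of 79 photosynthesis genes had a common lost site, which allows shares of up to 2.74% and 4.56% by the same limits, and 7 and 2 of them had a common *arp6-1* summit. In single replicates a lost summit touched 0 and 3 MYB genes (0% and 2.26%) and 1 and 5 photosynthesis genes (1.27% and 6.33%). The shares of all genes were 3.79% and 6.65%, so photosynthesis genes stood near the background in replicate 2. A common wild-type summit was held by 79 of 133 MYB factors (59.4%) and 9 of 79 photosynthesis genes (11.4%), against 50.9% of all genes.

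The promoters of the genes, from 250 bp before the start to 50 bp after it, were searched on both strands for 9 short motifs. TGGGCC, the core of the site II element of many genes of dividing plant cells, was found in 189 of 784 promoters of genes with a lost site (24.1%, 21.2 to 27.3), against 205 of 1751 genes with an *arp6-1* summit and no lost site (11.7%, 10.2 to 13.3) and 4243 of 27444 promoters of all protein-coding genes (15.5%). The related TGGGCT was found in 19.6% (16.9 to 22.6), against 10.05% (8.68 to 11.6) and 14.2%. In the meiosis list 9 of the 19 genes with a lost site (47.4%, 24.4 to 71.1) and 21 of all 63 members (33.3%, 22.0 to 46.3) held TGGGCC. For TGGGCT the order was the reverse, with 5 of the 19 (26.3%) and 22 of the 63 (34.9%). Either motif was held by 9 of the 19 (47.4%) and 27 of the 63 (42.9%), so these genes differed little from their list. Such matches are letters in a window and show no binding.

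Of the first 15 genes 4 held TGGGCC, and the promoters of the highest 2 are shown because the motif differs most between the genes with and without a lost site. They lie at chr1:3558108-3558407 and chr3:17849101-17849400 (TAIR10.1, plus strand), run 5′ to 3′, and the capitals mark TGGGCC or its reverse complement GGCCCA, which overlap in *PHS1*.
PHS1: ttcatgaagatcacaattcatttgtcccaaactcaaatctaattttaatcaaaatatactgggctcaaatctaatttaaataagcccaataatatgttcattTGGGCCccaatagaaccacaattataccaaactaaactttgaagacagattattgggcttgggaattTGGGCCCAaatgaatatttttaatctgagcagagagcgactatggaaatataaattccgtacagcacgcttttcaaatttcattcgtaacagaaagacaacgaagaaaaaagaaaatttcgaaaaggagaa
AT3G48210: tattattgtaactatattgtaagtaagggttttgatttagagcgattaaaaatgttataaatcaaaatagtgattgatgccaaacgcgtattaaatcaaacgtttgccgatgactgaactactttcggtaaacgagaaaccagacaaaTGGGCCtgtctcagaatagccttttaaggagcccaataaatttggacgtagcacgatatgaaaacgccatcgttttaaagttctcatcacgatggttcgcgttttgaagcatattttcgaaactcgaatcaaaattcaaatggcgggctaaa

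*PHS1* held 3 matches and AT3G48210 held 1. The G-box CACGTG was found in 12.6% (10.4 to 15.2) of promoters of genes with a lost site, against 9.31% (7.99 to 10.8) of genes with an *arp6-1* summit and no lost site and 7.68% of all. AACGG, the core of MYB-type mitotic elements, was found in 32.8% (29.5 to 36.2), against 26.0% (23.9 to 28.1) and 24.7%. TATAAA was found in 49.5% (45.9 to 53.0), against 54.6% (52.2 to 56.9) and 52.1%. AAACCCTA (telo box) was found in 4.97%, against 3.54% and 6.22%, GAGAGAGA in 10.6%, against 9.59% and 8.38%, and the E2F-type motifs TTTCCCGC and TTTGGCGC in 1.53% and 1.02%, against 0.971% and 0.628%, and 0.798% and 0.434% of all, each with overlapping intervals between the genes with and without a lost site.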

How the data were processed

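Chromatin immunoprecipitation sequencing of H2A.Z and H3 was done in 2 replicates of each of 4 genotypes. Per the labels and the methods of the study, reads were aligned with Bowtie to TAIR10 without the organelle genomes, uniquely mapping reads were kept and duplicates were removed with SAMtools. The authors called summits per replicate with MACS2 (version 2.1.1, q 0.01, extension size 200), and the deposited lists give each summit's position and its −log10 q value. The scaling between H2A.Z libraries of unlike genotypes is not given in the sources used here, and the lists hold no counts, so depth is unknown.

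A lost summit is one called in *arp6-1* over *arp6-1 mbd9-3* with the same replicate number. Summits were extended by 100 bp and overlaps of both replicates were taken as common sites. Genes came from the RefSeq annotation of TAIR10.1, and a gene was counted when at least 1 bp overlapped a site. No summit lay beyond a chromosome end, and 80.1% of the lost sites fell within 500 bp after a gene start, against 8.34% to 13.3% when they were moved by 1000 or 5000 bp either way. Scores beside a gene with a lost site are the highest within 200 bp of the site centre, and for other genes within 100 bp of the gene.

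The members and gene lists were chosen with earlier results of these data known. The lists were made from symbols, synonyms and product names, and 52 matches that shared only a name were removed after calls had been seen. Genes are named by rule: the first 15 by the lower of their 2 replicate scores, up to 3 lost members in each list, and the SWR1 and H2A.Z genes. In the lists of meiosis, cell cycle, replication, mitosis and remodelling ATPases further members were named after their values were seen. Scores of both replicates always stand in the order replicate 1, replicate 2. Alternatives were other joining distances (100 and 500 bp), score minimums (5 and 10), single replicates, other gene assignments and other windows. The joining of sites was tested on simulated summits. Python 3.11.15 and SciPy 1.17.1 were used.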

Additional observations from a re-analysis of the deposited data

How the results depend on the processing

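The counts of sites and genes followed the score minimum and the replicates required. With scores of at least 5 there were 512 sites in 484 genes, and with at least 10 there were 129 sites in 124 genes, all 124 among the 784. Requiring 1 replicate alone gave 1137 to 2034 sites and 1039 to 1824 genes, the higher values without replicate 1. Joining distances of 100 and 500 bp gave 787 and 830 sites. The share of *arp6-1* sites lost was 25.02% at 100 bp, 23.9% at 500 bp, 14.9% with scores of at least 5, 4.16% with at least 10, and 22.4% to 22.6% with single replicates. The share within the window after the start was 83.4% and 85.3% with scores of at least 5 and 10, 59.5% with a window of 300 bp, 83.9% with 700 bp, 73.1% to 77.7% with single replicates, and 78.0% among the quintile with the highest *arp6-1* scores, which was added after seeing the data. The share called as lower in *mbd9-3* in both replicates stayed between 3.88% and 5.13% under all settings with both replicates, and was 8.65% to 16.7% in single ones, where 1 call suffices. The median percentile in wild type, averaged over both replicates, was 93.1 with scores of at least 10 and 86.8 to 89.9 in single replicates, against 90.8. The number of lists above the background was 6 with scores of at least 10, 11 to 11 in single replicates, and otherwise 10 or 11. The meiosis list stood between 11.1% and 44.4% of its members, against 0.452% to 6.65% of all genes under the same settings, whereas replication and histone genes stood at 0 with scores of at least 10. No paired analysis was possible because the lists hold only called summits, with no value per library at each site to which a replicate block could be fitted, and each differential list compares libraries of the same replicate number.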
